A study of Homo sapiens with 24 samples.

Results

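TGFBR1, TGFBR2, BMPR1A, BMPR2, ACVR1, ACVR1B, SMAD2, SMAD3, SMAD4 and SMAD5 encode receptors and intracellular transducers of the TGF-beta and bone morphogenetic protein (BMP) pathways. The 10 genes were chosen by symbol from the 26364 genes of the count tables, because several of them are known as targets of miRNAs that share the seed of miR-301b. All 10 symbols were present, and 9 of the 10 had enough counts to be tested. RNA-seq had been made from T-47D, an established ER-positive human breast cancer cell line, in clones with WT ESR1, the gene of the estrogen receptor (ER), or with its Y537S or D538G mutation. Each ER genotype was represented by 2 clones, so a genotype here means those clones and not a population of independently edited cells. After hormone deprivation the clones received 10 nM of RNA for 24 h. This was a miRNA mimic, which is a synthetic RNA that adds miRNA activity, an inhibitor that blocks a miRNA, or the matching negative control. The miR-301b-3p mimic was given to cells of all 3 genotypes. The mimic of miR-331-3p went to Y537S and WT clones, and that of miR-181c-5p to D538G and WT clones. An inhibitor of let-7f-5p, with a control inhibitor of its own, was used on Y537S clones alone. The 12 conditions had 1 library per clone, named clone1 and clone2 (Y537S), A5 and C2 (D538G) and D1 and D4 (WT), which gave 24 libraries.

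Ligands of the TGF-beta family bind a complex of type II and type I receptor kinases. The type II receptors (TGFBR2 for TGF-beta, BMPR2 mainly for BMPs) phosphorylate the type I receptors (TGFBR1 for TGF-beta, ACVR1B for activins, BMPR1A and ACVR1 for BMPs). Type I receptors then phosphorylate the receptor-regulated SMADs, SMAD2 and SMAD3 on the TGF-beta and activin side and SMAD5 and its relatives on the BMP side, which join SMAD4 to control transcription. In breast epithelium the TGF-beta arm is known both for restraining proliferation and, in advanced tumors, for accompanying invasion.

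A miRNA pairs with transcripts mainly through its seed, bases 2 to 8 from its 5′ end. The mature sequences below (RefSeq, GRCh38.p14) are shown because every treatment in the series adds or blocks 1 of them, with the seed in capitals.
miR-301b-3p: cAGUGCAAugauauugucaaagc
miR-331-3p: gCCCCUGGgccuauccuagaa
miR-181c-5p: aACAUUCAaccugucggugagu
let-7f-5p: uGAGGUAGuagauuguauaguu
No 2 of the 4 seeds are the same. The letters complementary to the miR-301b seed, TTGCACT, occurred in the annotated 3′UTR of 9 of the 10 genes, all but SMAD3. This 7-base match was present in 14.2% of all 18785 genes with a 3′UTR, and in 22.8% of the 9005 genes whose 3′UTR measured 1085 to 7803 bases, the span of 9 of the 10 genes. The genes were chosen in part as known targets of miRNAs with this seed, so a high share was built into the list. The 8-base form, with an A after the match, was present in ACVR1 only, and in 2.87% of all genes with a 3′UTR. The SMAD2 3′UTR in this annotation, at 32870 bases, was far longer than those of the other genes. SMAD2 therefore lies outside the set limited by 3′UTR length, although it holds a match for each of the 4 miRNAs. For miR-331 (CCAGGGG) the match was in TGFBR1, ACVR1B and SMAD2, against 14.1% of all genes and 20.9% of the length-limited set. For miR-181c (TGAATGT) it was in TGFBR1, TGFBR2, BMPR2, SMAD2 and SMAD3, against 19.5% and 30.9%. For let-7f (CTACCTC) it was in TGFBR1, ACVR1B and SMAD2, against 9.85% and 15.3%. Only the transcript strand was searched, and a match is a description of letters, not a shown binding site.

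The windows below are 30 bases around the miR-301b matches of TGFBR1, ACVR1, BMPR2, SMAD5 and ACVR1B and the miR-331 and miR-181c matches of TGFBR1, shown because these genes gave most of the calls. Further matches of the same genes, for miR-331 and let-7f in ACVR1B, for miR-181c in BMPR2 and for let-7f in TGFBR1, are not printed. The windows were read from GRCh37 on the strand of the transcript, with the match in capitals. All lie in the last exon, inside the 3′UTR.
TGFBR1, miR-301b match: aaaagcttatttttattcTTGCACTggaag
TGFBR1, miR-331 match: agatctgctttatgaaatCCAGGGGaccaa
TGFBR1, miR-181c match: tttccttgattcagacttTGAATGTactgt
ACVR1, first miR-301b match: ctgtgcttctcttctttaTTGCACTaggaa
ACVR1, second miR-301b match: attctttgcattccttacTTGCACTgttac
BMPR2, miR-301b match: aattttgttttttaagttTTGCACTtttgt
SMAD5, miR-301b match: atgcattaatcttttattTTGCACTtttat
ACVR1B, miR-301b match: ttgctctagggccctttcTTGCACTgtcca
The TGFBR1 windows are at chr9:101914921-101914950, chr9:101913725-101913754 and chr9:101912024-101912053 on the plus strand, in exon 9 of 9. Those of ACVR1 are at chr2:158593613-158593642 and chr2:158593584-158593613 on the minus strand, in exon 11 of 11. The BMPR2 window is at chr2:203424855-203424884 (exon 13 of 13), that of SMAD5 at chr5:135513996-135514025 (exon 9 of 9) and that of ACVR1B at chr12:52389635-52389664 (exon 9 of 9), all 3 on the plus strand. An A follows the match, which extends it to the 8-base form, in 1 of the 2 ACVR1 windows and in the miR-331 and miR-181c windows of TGFBR1, but not in the other windows shown for miR-301b.

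Libraries held 31379962 to 50526442 counts. All 9 luminal epithelial markers (EPCAM, CDH1, KRT8, KRT18, KRT19, ESR1, PGR, GATA3 and FOXA1) had a median over 1 CPM (counts scaled to the size of the library), with a summed level of 9940 to 15400 CPM per library. Of 7 markers of other cell types, COL1A1 (median 61.7 CPM) and CD68 (3.55 CPM) passed that level, COL1A2, PDGFRB, PTPRC and PECAM1 had a median of 0, and the sum of the 7 was 51.8 to 85.5 CPM. Bulk RNA cannot tell fewer cells of a kind from less RNA per cell. No library was left out.

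Per kb of transcript the gene with the highest mean depended on the ER genotype. With the mimic negative control, ACVR1B was highest in WT cells (24.6 ± 2.34 CPM per kb, SD, n = 2), above BMPR2 (14.4 ± 0.713) and TGFBR1 (13.3 ± 0.732). TGFBR1 was highest in Y537S (20.3 ± 4.08, against 14.4 ± 0.165 for ACVR1B) and D538G cells (19.9 ± 6.05, against 14.7 ± 1.52), although in D538G cells the ranges of the genes overlapped. Over the 6 libraries together, ACVR1B stood at 17.9 ± 5.35 CPM per kb (SD, n = 6) and TGFBR1 at 17.8 ± 4.80. They were followed by BMPR2 (12.9 ± 1.34), SMAD5 (11.1 ± 0.587) and BMPR1A (10.8 ± 0.265). From ACVR1B to BMPR1A the range of each gene over the 6 libraries overlapped that of the next, but these ranges pool the genotypes. Within WT and within Y537S cells the ranges of ACVR1B and TGFBR1 did not overlap. Below BMPR1A the ranges over the 6 libraries did not overlap: SMAD4 was at 5.69 ± 0.437 CPM per kb, ACVR1 at 3.87 ± 0.327, SMAD2 at 2.37 ± 0.0788 and SMAD3 at 1.99 ± 0.168. The SMAD2 value rests on an annotated transcript of 34626 bases, and a shorter transcript would raise it.

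**Figure D1:**
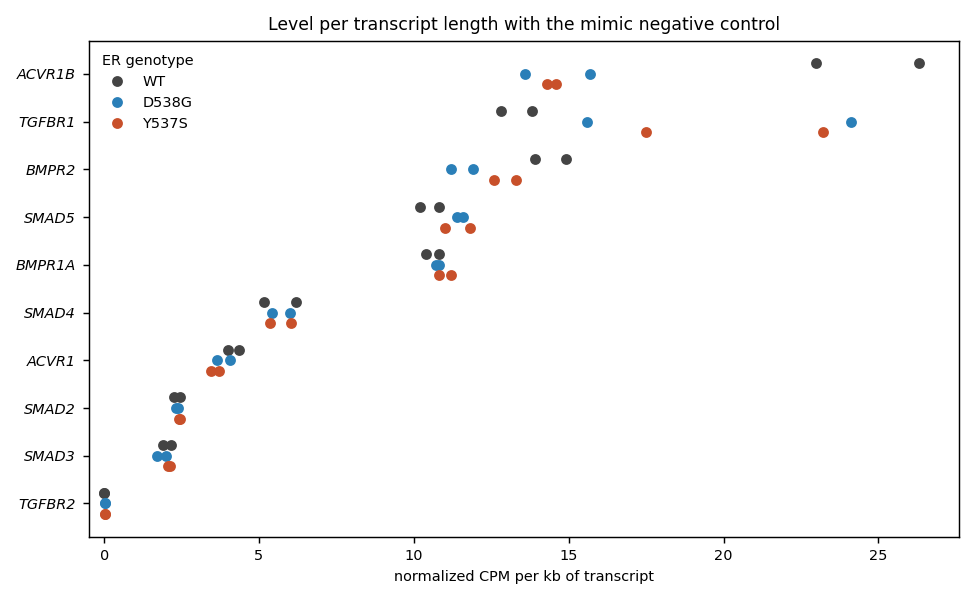
Level of each of the 10 genes in CPM per kb of transcript (x axis) in the 6 libraries given the mimic negative control, 1 point per library, colored by ER genotype. ACVR1B is highest in the 2 WT libraries (23.0 and 26.3) and TGFBR1 lowest in them (12.8 and 13.8), while TGFBR2 lies at or near 0.

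TGFBR2, the type II receptor for TGF-beta, was at the limit of detection. It had 67 counts in all 24 libraries together, between 0 and 8 per library, and 8 libraries had none. If counts are independent, a count of 0 allows an expected count of up to 3 at this depth. The 2 WT libraries with the mimic negative control both had 0 counts, the corresponding D538G libraries 6 and 4, and the Y537S libraries 3 and 8. No pair of libraries of 1 condition held more than 11 counts. The gene failed the filter on low counts in every comparison, and no fold change is given. Among counts from 1 to 10 in the tables, 58.3 to 64.9% were even in each library, against 49.1 to 50.9% of counts over 100. Counts that come in pairs would raise the bound of 3, and whether they do was not tested.

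The ER genotypes differed in TGFBR1 and ACVR1B, the type I receptors for TGF-beta and activin. TGFBR1 was at 83.0 CPM in clone D1 and 89.7 CPM in D4 of the WT cells with the mimic negative control. It was at 151 and 113 CPM in clone1 and clone2 of Y537S cells and at 101 and 157 CPM in A5 and C2 of D538G cells. Every ER mutant library was above both WT libraries, and the mutant clones differed from each other more than the WT clones did. The log2 difference from WT was 0.63 (SE 0.13, adjusted p = 0.0116, edgeR quasi-likelihood test with Benjamini-Hochberg adjustment) in Y537S and 0.56 (SE 0.168, adjusted p = 0.0255) in D538G cells. Both calls were lost with all 24 libraries in 1 fit, where no member was called higher in either mutant. The D538G call was lost with DESeq2 (adjusted p = 0.165), without clone C2 (log2 difference 0.22, adjusted p = 0.102) and without WT clone D1 (adjusted p = 0.0798), and the Y537S call without WT clone D1 (adjusted p = 0.0711).

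ACVR1B went the other way. It was at 119 and 104 CPM in WT clones D1 and D4, at 66.0 and 64.9 CPM in clone1 and clone2 of Y537S and at 71.4 and 61.6 CPM in A5 and C2 of D538G cells. The mutant and WT libraries did not overlap, and ACVR1B differed from WT by -40.7% in Y537S (log2 difference -0.75, SE 0.0945, adjusted p = 0.00152) and by -41% in D538G cells (log2 difference -0.76, SE 0.0988, adjusted p = 0.000382). Both calls held whichever library was left out, with adjusted p-values up to 0.0156.

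BMPR2 was lower in D538G than in WT cells (135 and 143 CPM in A5 and C2 against 179 and 167 CPM in D1 and D4, log2 difference -0.33, SE 0.0745, adjusted p = 0.00706), although without clone D1 the adjusted p was 0.0517. In all, 2 of the 9 tested genes were called between Y537S and WT cells, where 29% of all 15106 tested genes were, and 3 between D538G and WT cells, where 38.9% of 14942 genes were. These shares are near the background. Between Y537S and D538G cells none of the 9 was called (0 at an unadjusted p under 0.05, and 0 with DESeq2), against 6.19% of genes. The comparisons with WT share the WT libraries. BMPR1A, ACVR1, SMAD2, SMAD3, SMAD4 and SMAD5 passed the test in none of the 3 comparisons of genotypes, with log2 differences between -0.21 and 0.20.

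**Figure D2:**
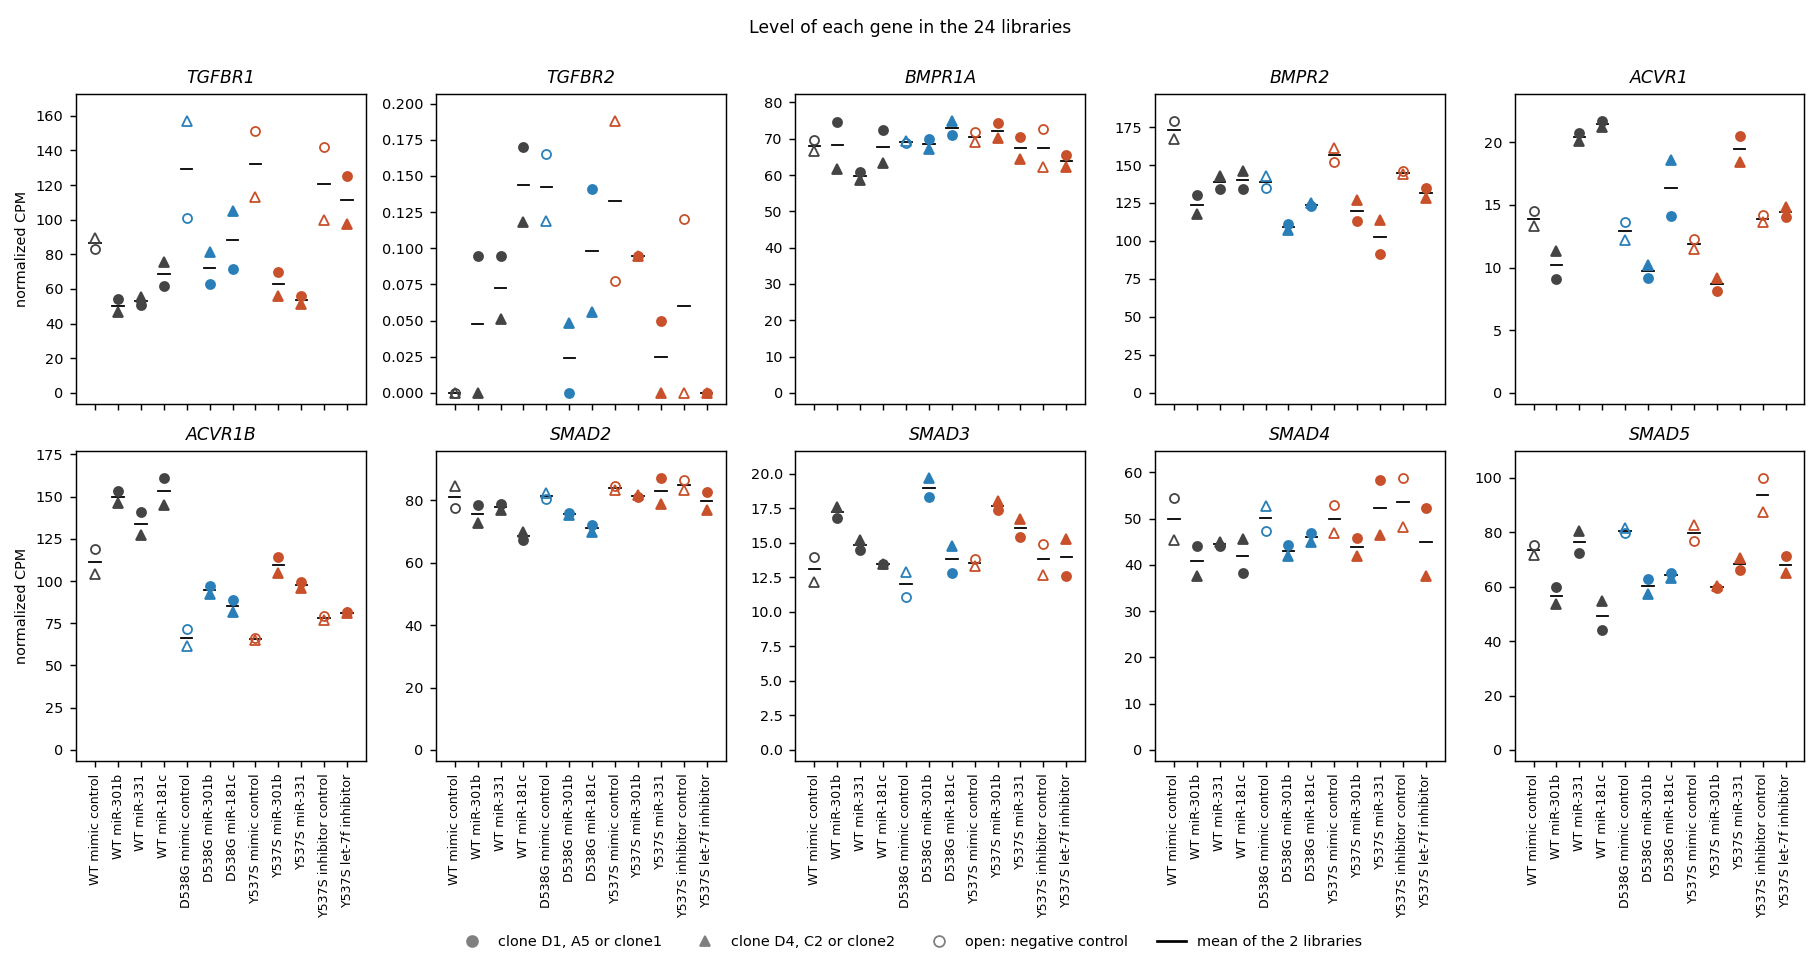
Normalized CPM (y axis, from 0) of each gene in the 24 libraries, arranged by condition (x axis) and colored by ER genotype, with circles and triangles for the 2 clones, open symbols for negative controls and a bar for the mean. TGFBR1 falls below its control with the miR-301b and miR-331 mimics in each genotype that received them, ACVR1B is above its control with every mimic, and BMPR1A and SMAD2 stay within narrow ranges (58.5 to 74.9 and 67.4 to 87.2 CPM).

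Each treatment was then set against its own negative control within a genotype, which asks what each miRNA does to these genes in mutant and in WT cells. Treatments of 1 genotype that share a negative control are not independent of each other. The same clones were used with and without a treatment, so a further fit took the clone as a blocking factor. After the miR-301b mimic, 2 of 9 genes were called in Y537S (1 up-regulated and 1 down-regulated, background 3.57%), 5 in D538G (2 up and 3 down, background 11.8%) and 4 in WT cells (1 up and 3 down, background 8.5%). With clones blocked, 7 of 9 were called in each of the 3 genotypes, 2 up and 5 down, against a background of 38.4% in Y537S, 33.3% in D538G and 28.2% in WT cells. The median log2 fold change of the 9 genes was -0.21 in Y537S, -0.22 in D538G and -0.29 in WT cells, whereas the median of all tested genes was 0.0073, 0.0055 and 0.00022.

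After the miR-331 mimic, 4 of 9 genes were called in Y537S and 4 in WT cells, each time 2 up-regulated and 2 down-regulated, against backgrounds of 33% and 24.8%. With the block the counts were 5 (background 60.7%) and 4 (background 37%). After the miR-181c mimic, 2 of 9 were called in D538G (background 9.52%) and 5 in WT cells (background 16.4%), and with the block 6 (background 29.3%) and 7 (background 27.9%). The median log2 fold change of the 9 genes was 0.00033 and -0.034 after miR-331 in Y537S and WT cells, and -0.12 and -0.26 after miR-181c in D538G and WT cells. After the let-7f inhibitor none was called (background 0%, 1 gene at an unadjusted p under 0.05, 1 with DESeq2), and with the block 3 of 9, all down-regulated (background 11.2%).

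**Figure D3:**
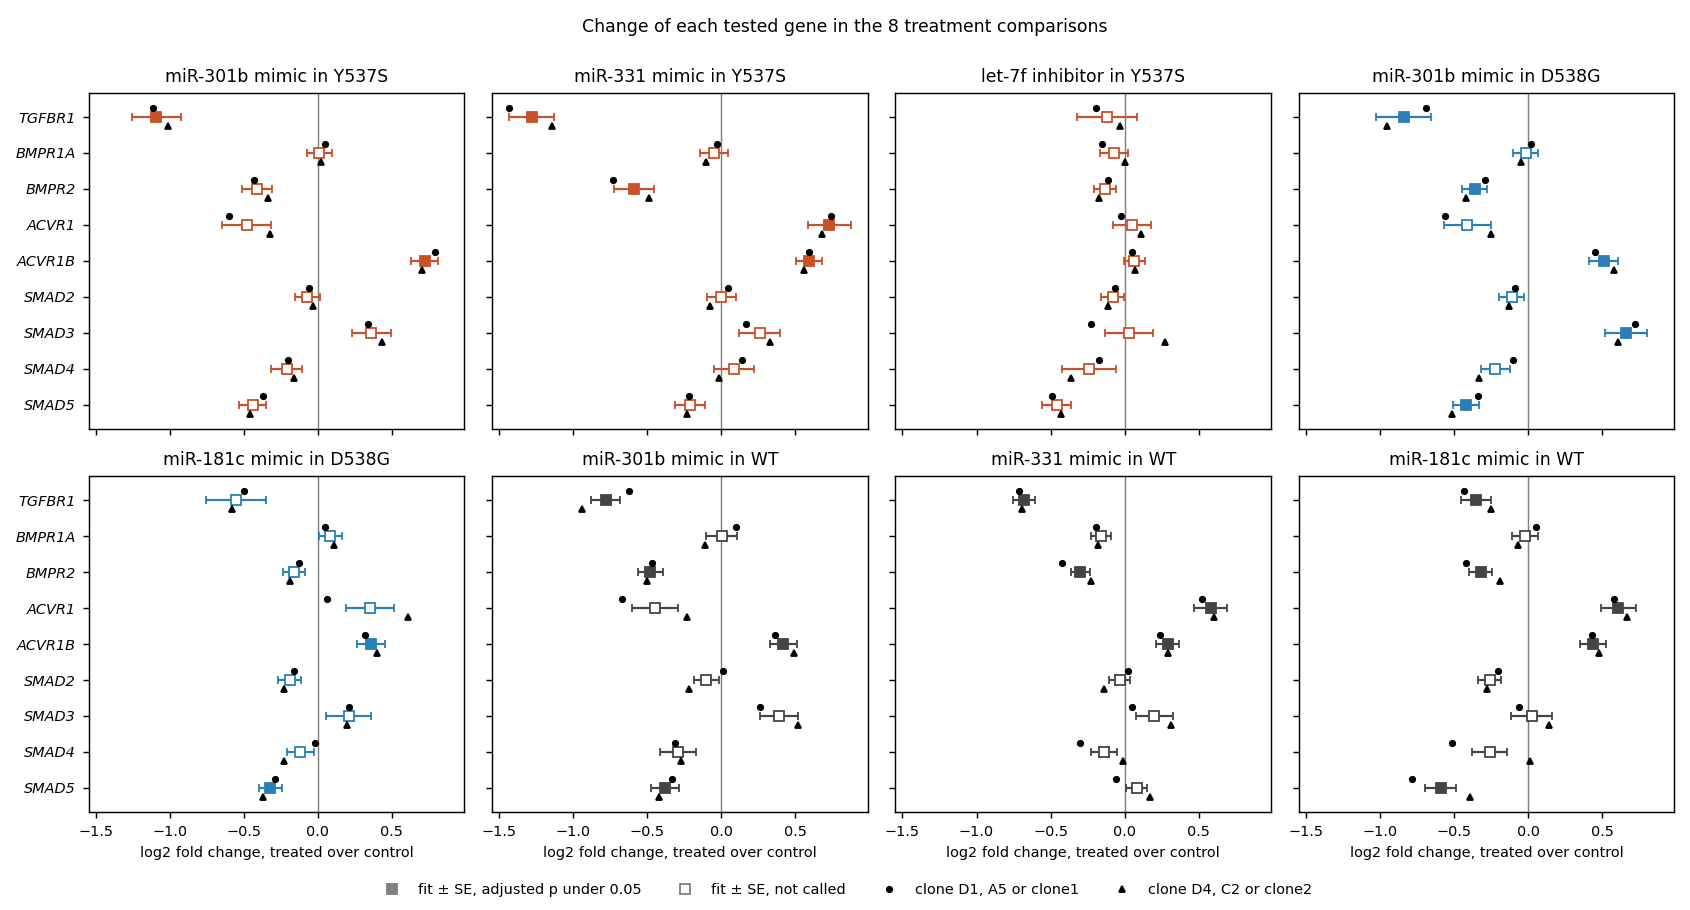
Log2 fold change of treated over control (x axis) for the 9 tested genes (y axis) in each of the 8 treatment comparisons. Squares with bars are the fitted value ± SE, filled where the adjusted p was under 0.05, and the small circles and triangles are the 2 clones taken one by one. TGFBR1 lies left of 0 and ACVR1B right of 0 in both clones of every mimic comparison, and ACVR1 lies left of 0 with miR-301b and right of 0 with miR-331 and miR-181c. TGFBR2 was not tested and is not drawn.

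TGFBR1, the type I receptor kinase for TGF-beta, showed the largest decreases of the 9 genes after miR-301b and miR-331. With the miR-301b mimic it was at 70.0 and 56.1 CPM in clone1 and clone2 of Y537S cells, against 151 and 113 CPM with the negative control. In D538G cells it was at 62.7 and 81.3 CPM in A5 and C2 against 101 and 157 CPM, and in WT cells at 54.0 and 46.8 CPM in D1 and D4 against 83.0 and 89.7 CPM. Treated and control libraries did not overlap in any genotype. TGFBR1 fell by 53% in Y537S (log2 fold change -1.09, SE 0.166, adjusted p = 0.0337), by 44.2% in D538G (-0.84, SE 0.187, adjusted p = 0.022) and by 41.6% in WT cells (-0.78, SE 0.0982, adjusted p = 0.00472). The D538G call was lost with DESeq2 (adjusted p = 0.0842) and the Y537S call without the clone1 control library (adjusted p = 0.0933).

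The miR-331 mimic lowered TGFBR1 as well, to 56.0 and 51.4 CPM in clone1 and clone2 of Y537S cells and to 50.8 and 55.6 CPM in D1 and D4 of WT cells. The decrease was 58.8% in Y537S (log2 fold change -1.28, SE 0.152, adjusted p = 0.00665) and 37.4% in WT cells (-0.68, SE 0.0736, adjusted p = 0.000239). Both calls held without any 1 library. With the miR-181c mimic TGFBR1 was at 71.3 and 105 CPM in A5 and C2 of D538G cells, where the treated and control ranges overlapped, and at 61.6 and 75.5 CPM in D1 and D4 of WT cells. It was called in WT cells (-0.35, SE 0.102, adjusted p = 0.0426), a call that was lost in 3 of the 4 fits that leave out 1 library (without the D1 or D4 control or the treated D1 library, adjusted p from 0.0812 to 0.205, with a log2 change of -0.21 without the last). In D538G cells it was called with the block (-0.54, adjusted p = 1.49e-14) and not without it (-0.55, SE 0.202, adjusted p = 0.122), and within each clone the log2 change was -0.50 in A5 and -0.58 in C2. The let-7f inhibitor gave 125 and 97.5 CPM against 142 and 99.6 CPM with its control in clone1 and clone2, a difference of -0.12 on the log2 scale that did not pass the test (adjusted p = 1).

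ACVR1B, the type I receptor for activin and nodal, was up-regulated in all 7 mimic comparisons. Without the block it was called in more treatments than any other member (7 of 8, against 6 for TGFBR1), whereas with the block BMPR2 was called in 8 and with the GC correction ACVR1, ACVR1B and TGFBR1 in 3 each. With the miR-301b mimic it was at 114 and 105 CPM in clone1 and clone2 of Y537S cells against 66.0 and 64.9 CPM, at 97.3 and 92.1 CPM in A5 and C2 of D538G cells against 71.4 and 61.6 CPM, and at 153 and 146 CPM in D1 and D4 of WT cells against 119 and 104 CPM. The rise was 64.7% in Y537S (log2 fold change 0.72, SE 0.0879, adjusted p = 0.0255), 42.1% in D538G (0.51, SE 0.0959, adjusted p = 0.0125) and 33.8% in WT cells (0.42, SE 0.089, adjusted p = 0.0282). This gene carries a miR-301b match and its level was higher, not lower, with the mimic.

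With the miR-331 mimic ACVR1B was at 99.4 and 96.0 CPM in clone1 and clone2 of Y537S and at 141 and 127 CPM in D1 and D4 of WT cells, which made log2 changes of 0.59 (SE 0.0884, adjusted p = 0.00871) and 0.29 (SE 0.0798, adjusted p = 0.0236). With the miR-181c mimic it was at 88.9 and 81.6 CPM in A5 and C2 of D538G and at 161 and 145 CPM in D1 and D4 of WT cells, with log2 changes of 0.36 (SE 0.0954, adjusted p = 0.043) and 0.44 (SE 0.0884, adjusted p = 0.0087). None of the treated pairs overlapped its control. The call was lost without 1 library in 5 of the 7 comparisons. The libraries were either control library of Y537S with miR-301b (adjusted p = 0.0983 and 0.0639), the WT control of clone D4 with miR-301b, miR-331 and miR-181c (0.195, 0.109 and 0.0863), the treated D1 library with miR-331 (0.218), and in D538G cells with miR-181c the C2 control (0.221), the treated A5 (0.171) or the treated C2 library (0.083). The let-7f inhibitor left ACVR1B at 81.6 and 80.8 CPM against 79.0 and 77.0 CPM in clone1 and clone2, and the log2 difference of 0.064 did not pass the test (adjusted p = 1).

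ACVR1, a type I receptor for BMPs that also binds activins, went in opposite directions with different mimics. With miR-331 it was at 20.5 and 18.4 CPM in clone1 and clone2 of Y537S cells against 12.3 and 11.5 CPM, and at 20.7 and 20.1 CPM in D1 and D4 of WT cells against 14.5 and 13.3 CPM. It rose by 65.3% in Y537S (log2 fold change 0.73, SE 0.143, adjusted p = 0.0166) and by 49.3% in WT cells (0.58, SE 0.109, adjusted p = 0.00363). With miR-181c it was at 21.7 and 21.2 CPM in D1 and D4 of WT cells, a rise of 52.9% (0.61, SE 0.117, adjusted p = 0.00719). In D538G cells with miR-181c it was at 14.1 and 18.6 CPM in A5 and C2 against 13.6 and 12.2 CPM, called with the block only (0.34, adjusted p = 0.0304, against 0.208 without it), and nearly all of the difference came from clone C2 (0.61 against 0.059 in A5). The Y537S call was lost without the clone2 control (adjusted p = 0.0742) or the treated clone1 library (0.0573), and the miR-181c call in WT cells without the D4 control (0.0559).

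With the miR-301b mimic ACVR1 was instead below its control in every library. It was at 8.14 and 9.19 CPM in clone1 and clone2 of Y537S, at 9.18 and 10.2 CPM in A5 and C2 of D538G and at 9.09 and 11.3 CPM in D1 and D4 of WT cells. The log2 fold changes were -0.48, -0.41 and -0.45, and they did not pass without the block (adjusted p = 0.155, 0.12 and 0.111). When the clone was blocked ACVR1 fell in all 3 (adjusted p = 0.00275, 0.0198 and 0.0235). ACVR1 holds a pair of miR-301b matches and none for miR-331 or miR-181c.

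BMPR2, the type II receptor for BMPs, was lower with all the mimics. With the miR-301b mimic it was at 113 and 127 CPM in clone1 and clone2 of Y537S cells against 152 and 161 CPM, at 111 and 107 CPM in A5 and C2 of D538G cells against 135 and 143 CPM, and at 130 and 118 CPM in D1 and D4 of WT cells against 179 and 167 CPM. The log2 fold change was -0.36 in D538G (SE 0.0826, adjusted p = 0.0255) and -0.48 in WT cells (SE 0.0837, adjusted p = 0.0144). In Y537S cells it was -0.41 (SE 0.0997), called with the block (adjusted p = 2.26e-09) and not without it (0.0847). The D538G call was lost without the C2 control (adjusted p = 0.143) or the treated C2 library (0.0933), and the WT call without the D1 control (0.0535).

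The miR-331 mimic lowered BMPR2 to 91.7 and 114 CPM in clone1 and clone2 of Y537S (log2 fold change -0.59, SE 0.135, adjusted p = 0.0251) and to 134 and 143 CPM in D1 and D4 of WT cells (-0.30, SE 0.0638, adjusted p = 0.00672). The miR-181c mimic lowered it to 134 and 146 CPM in D1 and D4 of WT cells (-0.32, SE 0.0777, adjusted p = 0.0212). In D538G cells with miR-181c it was at 123 and 125 CPM (-0.16, adjusted p = 0.216, and 0.0404 with the block), and with the let-7f inhibitor at 135 and 128 CPM against 146 and 144 CPM (-0.13, adjusted p = 1, and 0.0487 with the block). Each of these BMPR2 calls made without the block was lost when some 1 library was left out: the clone2 control (adjusted p = 0.057) or the treated clone1 library (0.0575) for miR-331 in Y537S, the treated D1 library for miR-331 in WT cells (0.093), and the D1 control (0.184), the D4 control (0.0553) or the treated D1 library (0.0677) for miR-181c in WT cells.

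BMPR1A, a type I receptor for BMPs, stayed between 58.5 and 74.9 CPM in the 24 libraries, a ratio of 1.28. Its log2 fold changes ran from -0.16 (miR-331 in WT cells, SE 0.067, adjusted p = 0.0973) to 0.083 (miR-181c in D538G cells, adjusted p = 0.57), and it was called in no treatment, with or without the block. It holds 1 miR-301b match, and its log2 change with that mimic was 0.011 in Y537S (SE 0.0856), -0.017 in D538G (SE 0.0845) and 0.0021 in WT cells (SE 0.105).

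SMAD5, which carries signals from BMP receptors, was the SMAD with the most calls. With the miR-301b mimic it was at 59.5 and 60.3 CPM in clone1 and clone2 of Y537S cells against 77.0 and 82.7 CPM, at 63.0 and 57.3 CPM in A5 and C2 of D538G cells against 79.6 and 81.5 CPM, and at 60.0 and 53.5 CPM in D1 and D4 of WT cells against 75.4 and 71.7 CPM. All treated libraries were below all the controls of their genotype. SMAD5 fell by 25.5% in D538G (log2 fold change -0.42, SE 0.0892, adjusted p = 0.0178) and by 22.9% in WT cells (-0.38, SE 0.0914, adjusted p = 0.0424), and in Y537S cells (-0.44, SE 0.0914) it was called with the block (adjusted p = 5.49e-08) and not without it (0.0607). The D538G call was lost without the treated C2 library (0.0857), and the WT call without either control library or the treated D4 library (0.0898 to 0.21).

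The miR-181c mimic brought SMAD5 to 65.2 and 63.2 CPM in A5 and C2 of D538G (log2 fold change -0.32, SE 0.0778, adjusted p = 0.0305) and to 44 and 54.8 CPM in D1 and D4 of WT cells (-0.59, SE 0.105, adjusted p = 0.00509). The D538G call was lost without the C2 control (0.115), the treated A5 (0.0854) or the treated C2 library (0.176), and the WT call held without any 1 library. SMAD5 holds no 7-base miR-181c match. With the miR-331 mimic it was at 66.0 and 70.5 CPM in Y537S (-0.21, adjusted p = 0.161, and 0.011 with the block) and at 72.5 and 80.5 CPM in WT cells (0.081, adjusted p = 0.458). With the let-7f inhibitor it was at 71.2 and 65.0 CPM in clone1 and clone2 against 100 and 87.6 CPM with the inhibitor negative control. This log2 difference of -0.46 (SE 0.0978) was not called without the block (adjusted p = 0.751) and was called with it (4.47e-06) and with DESeq2 (0.0481). The 2 inhibitor control libraries were the highest of the 24 for SMAD5, and no other library exceeded 82.7 CPM.

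SMAD3, a transducer of TGF-beta and activin signals and the only member without a miR-301b match, was higher with the miR-301b mimic. It was at 17.4 and 18 CPM in clone1 and clone2 of Y537S cells against 13.8 and 13.3 CPM, at 18.3 and 19.7 CPM in A5 and C2 of D538G cells against 11.1 and 12.9 CPM, and at 16.8 and 17.6 CPM in D1 and D4 of WT cells against 14 and 12.2 CPM. The groups did not overlap in any genotype. SMAD3 rose by 58% in D538G cells (log2 fold change 0.66, SE 0.143, adjusted p = 0.0203, and 0.0798 without the treated C2 library). In Y537S (0.36, SE 0.131) and WT cells (0.39, SE 0.131) it was called with the block (adjusted p = 0.00946 and 0.025) and not without it (0.175 and 0.107). No other treatment gave a call for SMAD3.

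SMAD2, the other transducer on that side, ranged from 67.4 to 87.2 CPM over the 24 libraries. Of the edgeR fits without and with the block, only the blocked ones called it, and only after miR-181c. In D538G cells it was at 72.0 and 70.0 CPM in A5 and C2 against 80.6 and 82.3 CPM (log2 fold change -0.19, adjusted p = 0.026, and 0.15 without the block). In WT cells it was at 67.4 and 69.9 CPM in D1 and D4 against 77.6 and 84.7 CPM (-0.25, adjusted p = 0.0105, and 0.056 without the block). DESeq2 called the WT difference too (adjusted p = 0.0372). With the block and a correction for GC content, neither was called (-0.017, adjusted p = 0.898, and -0.057, adjusted p = 0.645). SMAD2 was then called higher after miR-331 in Y537S (0.31, adjusted p = 0.000638) and WT cells (0.17, adjusted p = 0.0125).

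SMAD4, the common partner of the other SMADs, ranged from 37.6 to 58.8 CPM and was called in no comparison without the block. With the block it was called after miR-301b in Y537S (log2 fold change -0.21, adjusted p = 0.0346), D538G (-0.22, adjusted p = 0.0355) and WT cells (-0.29, adjusted p = 0.0109), after miR-181c in WT cells (-0.26, adjusted p = 0.046) and after the let-7f inhibitor (-0.25, adjusted p = 0.0155). Without the block the adjusted p-values of these 5 were 0.303, 0.172, 0.172, 0.157 and 1. The WT difference with miR-181c came from clone D1 alone, where the log2 change was -0.51, while in D4 it was 0.012.

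The changes of these genes went along with the GC content of their transcripts. The genes that were higher with a mimic had the higher GC contents, ACVR1B 52.6%, SMAD3 51.1% and ACVR1 49.8%, and those that were lower had the lower ones, SMAD4 41.1%, SMAD2 40.3%, BMPR2 39.1%, TGFBR1 38.8% and SMAD5 36.9%. BMPR1A, at 39.4%, hardly moved, and ACVR1 after miR-301b moved against this order. The same trend ran through the whole transcriptome. In Y537S cells with the miR-301b mimic, of 5 equal groups of all tested genes, the one with the lowest GC content (30.7 to 40.9%) had a median log2 fold change of -0.23 and the one with the highest (58.7 to 76.8%) one of 0.29. With miR-331 in Y537S cells these medians were -0.41 and 0.50, and in the other 5 mimic comparisons they lay between -0.26 and -0.16 for the lowest group and between 0.29 and 0.39 for the highest. With the let-7f inhibitor they were -0.11 and 0.009. The part of this trend in the changes of single genes was measured by removing it from each library as an offset, and its origin was not tested.

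**Figure D4:**
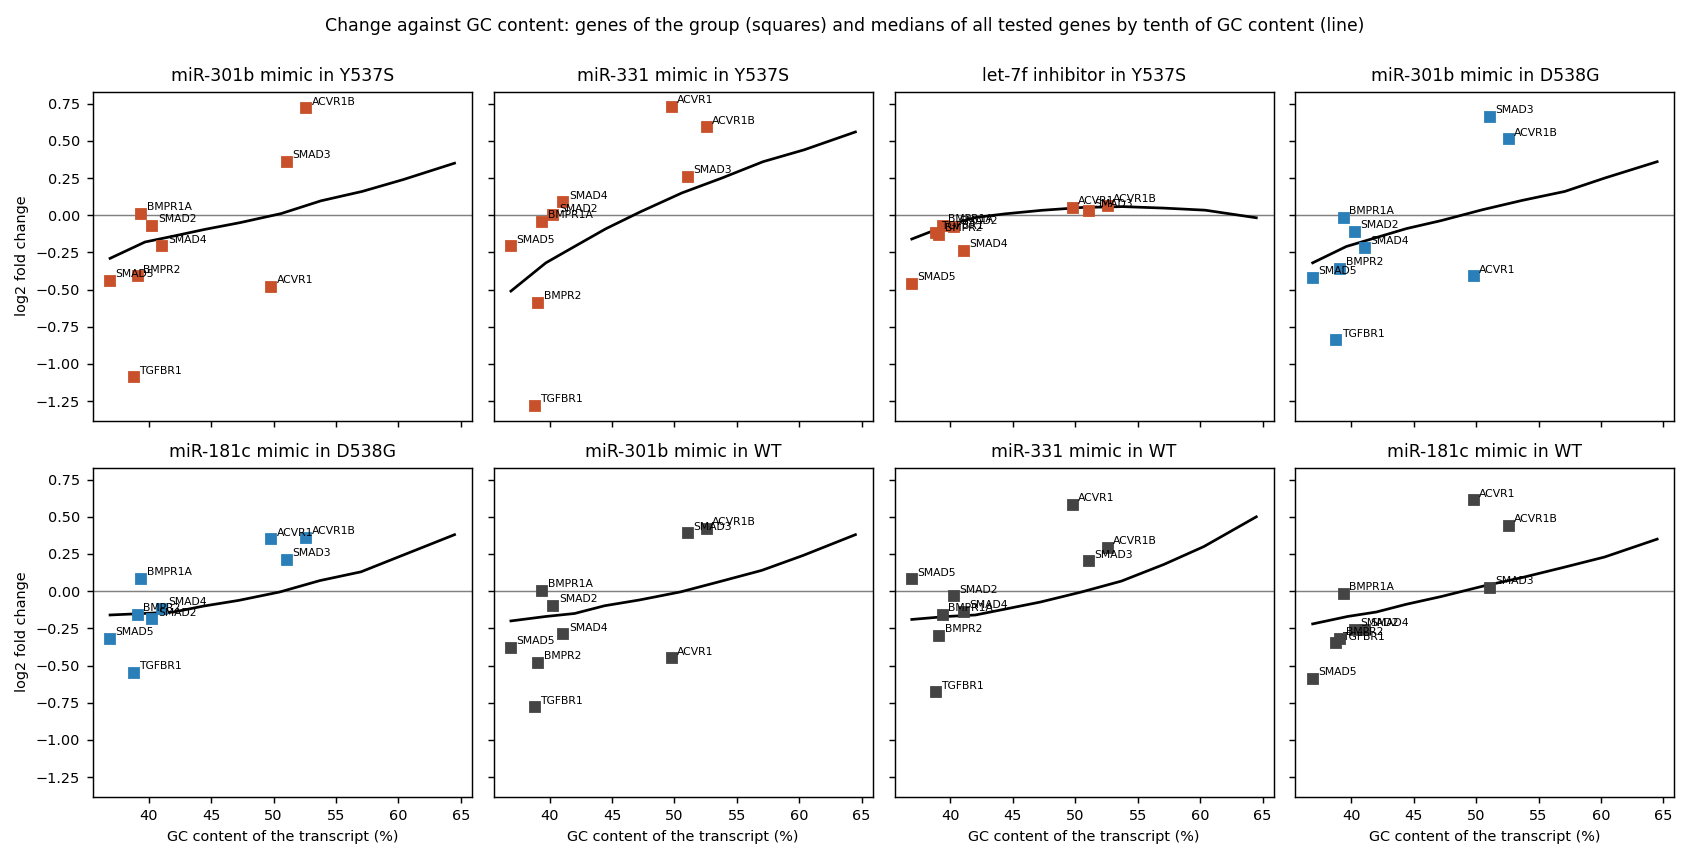
Log2 fold change (y axis) against GC content of the transcript (x axis, percent) for the 9 tested genes (squares) in the 8 treatment comparisons. The line joins the medians of all tested genes in 10 equal groups of GC content. The line climbs in the 7 mimic comparisons, and TGFBR1 lies below it in each of them while ACVR1B lies above it.

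With the GC trend removed and no block, none of the 9 genes was called after miR-301b in Y537S (background 0.152%, 5 genes at an unadjusted p under 0.05) and D538G (1.48%, 5 genes) or after miR-181c in D538G cells (1.39%, 3 genes). In WT cells 3 were called after miR-301b (4.66%), 3 after miR-331 (7.67%) and 2 after miR-181c (7.37%), in Y537S cells 3 after miR-331 (20.5%), and with the let-7f inhibitor none (0%, 1 gene). These calls were TGFBR1 after miR-301b in WT cells (adjusted p = 0.00601) and after miR-331 in Y537S (0.0253) and WT cells (0.00781), ACVR1B after miR-331 in Y537S (0.0246) and after miR-301b (0.0462) and miR-181c in WT cells (0.0195), ACVR1 after miR-331 in Y537S (0.0316) and WT cells (0.00738) and after miR-181c in WT cells (0.00807), BMPR2 after miR-301b in WT cells (0.0342) and SMAD5, higher, after miR-331 in WT cells (0.0177). Every other treatment call made without the block was lost with the trend removed. In the fit with both the clone block and the GC correction, the counts after miR-301b were 6 of 9 in Y537S (background 28.3%), 5 in D538G (16.3%) and 6 in WT cells (14.5%). They were 8 and 5 after miR-331 in Y537S (53.1%) and WT cells (22.7%), 4 and 3 after miR-181c in D538G (18.1%) and WT cells (16.5%), and 2 with the let-7f inhibitor (10.4%). The median log2 fold change of the 9 genes was then -0.03, -0.031 and -0.11 after miR-301b in Y537S, D538G and WT cells.

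Under that joint correction some genes kept their changes and others did not. TGFBR1 was called lower in 6 of the 7 mimic comparisons. Its log2 changes were -0.84 (adjusted p = 9.79e-47), -0.56 (1.07e-06) and -0.56 (0.000275) after miR-301b in Y537S, D538G and WT cells. After miR-331 they were -0.86 (1.71e-09) and -0.46 (4.55e-13) in Y537S and WT cells. The exception was miR-181c in WT cells, where TGFBR1 was lower but not called (-0.12, adjusted p = 0.226). ACVR1B was higher in all 7, by 0.28 to 0.65, and ACVR1 was called in all 7, with log2 changes of -0.49 to -0.43 after miR-301b and of 0.37 to 0.64 after the other mimics. SMAD3 stayed up-regulated after miR-301b in the 3 genotypes (0.32, 0.62 and 0.38, adjusted p = 0.0203, 0.000456 and 0.0415). BMPR2 remained lower after miR-301b in Y537S (-0.17, adjusted p = 0.00488) and WT cells (-0.28, adjusted p = 0.00172) and after miR-331 in Y537S cells (-0.21, adjusted p = 0.00907) only.

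SMAD5 lost its decrease after miR-301b (-0.14, -0.095 and -0.14 in Y537S, D538G and WT cells, adjusted p = 0.0904, 0.347 and 0.144) and after miR-181c in D538G cells (-0.13, adjusted p = 0.143). It kept that after miR-181c in WT cells (-0.33, adjusted p = 0.00298) and that with the let-7f inhibitor (-0.30, adjusted p = 2.4e-07), and it was called higher after miR-331 in Y537S and WT cells (0.31 in both, adjusted p = 0.000551 and 9.68e-07). SMAD4 lost every decrease after a mimic, and BMPR1A was called higher in 5 comparisons, by 0.20 to 0.32. SMAD4 was called lower with the let-7f inhibitor (-0.22, adjusted p = 0.00719), and SMAD4 (0.35, adjusted p = 0.000289) and SMAD2 (0.31, adjusted p = 0.000638) were called higher after miR-331 in Y537S cells, as was SMAD2 in WT cells (0.17, adjusted p = 0.0125).

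Whether a mimic acted differently in ER mutant and in WT cells was tested as an interaction. No member was called for miR-301b in Y537S (background 0.00632%) or D538G cells (0.0064%), for miR-331 in Y537S cells (9.94%) or for miR-181c in D538G cells (0.00646%). In these edgeR fits 1, 0, 2 and 0 members had an unadjusted p under 0.05, and DESeq2 called 0, 0, 1 and 0. The largest difference was that of TGFBR1 with miR-331. Its log2 fold change in Y537S minus that in WT cells was -0.62 (SE 0.183, adjusted p = 0.0665, and 0.0321 with DESeq2). With clones blocked, 4 members were called for miR-331 (background 34.1%): TGFBR1 (-0.61, adjusted p = 2.57e-05), BMPR2 (-0.31, adjusted p = 0.00766), SMAD5 (-0.30, adjusted p = 0.018) and ACVR1B (0.29, adjusted p = 0.0114). With the GC trend removed as well, TGFBR1 was still called (-0.43, adjusted p = 0.00106), BMPR1A was called (0.25, adjusted p = 0.0443), and the other 3 were not. Without the block, BMPR2 was called only when the treated clone2 library of Y537S was left out (-0.48, adjusted p = 0.0299). The blocked interactions for miR-301b in Y537S (0.202%), miR-301b in D538G (0.147%) and miR-181c in D538G cells (0.0775%) called no member, with 2, 0 and 1 members at an unadjusted p under 0.05. A missed threshold does not show that the responses were alike: for ACVR1B the response to miR-301b was 0.31 greater in Y537S than in WT cells (SE 0.128, unadjusted p = 0.0362, adjusted p = 1).

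Over all tested genes, those with a match to the added miRNA had the lower medians for miR-301b and miR-181c. After miR-301b the median log2 fold change was -0.15, -0.14 and -0.15 with a match and 0.034, 0.034 and 0.025 without one in Y537S, D538G and WT cells. After miR-181c it was -0.15 and -0.18 with a match and 0.039 and 0.067 without in D538G and WT cells. After miR-331 the medians with a match were higher, 0.14 against 0.0026 in Y537S and 0.059 against -0.011 in WT cells. These medians were taken without the GC correction. The miR-331 match holds more G and C than those for miR-301b and miR-181c. How much of these differences follows the GC trend was not tested. Without the block, 1, 3 and 3 of the 8 tested members with a miR-301b match were called lower after miR-301b in Y537S, D538G and WT cells. Among all tested genes with a match, 9.4%, 18.3% and 15.7% were. The members were chosen in part as known targets of this seed. With the block, that share of all genes was not counted. Of the 8 members, TGFBR1, ACVR1, BMPR2, SMAD4 and SMAD5 were then called lower after miR-301b in all 3 genotypes. ACVR1B was called higher, and BMPR1A and SMAD2 were not called. SMAD3, without a match, was called higher with the block in all 3. With the GC trend removed as well, TGFBR1 and ACVR1 were still called lower in all 3 genotypes and BMPR2 in Y537S and WT cells. SMAD2, SMAD4 and SMAD5 were called in none. Of the other genes with a match, ACVR1B was still called higher in Y537S, D538G and WT cells (0.65, 0.44 and 0.39). BMPR1A was then called higher in the same genotypes (0.24, 0.22 and 0.2, adjusted p = 0.00113, 0.0186 and 0.0486).

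The rest of the pathway was followed in a list of 52 further genes, all present in the tables, of which 45 to 49 had enough counts. After miR-301b, 1 of 46 was called in Y537S (down-regulated), 5 of 47 in D538G (4 up and 1 down) and 9 of 48 in WT cells (7 up and 2 down), which made 2.17%, 10.6% and 18.8% against 3.57%, 11.8% and 8.5% of all tested genes. After miR-331 the counts were 12 of 46 in Y537S (8 up and 4 down) and 16 of 47 in WT cells (10 up and 6 down), and after miR-181c 13 of 45 in D538G (9 up and 4 down) and 21 of 47 in WT cells (13 up and 8 down). These were 26.1% and 34% after miR-331 against backgrounds of 33% and 24.8%, and 28.9% and 44.7% after miR-181c against 9.52% and 16.4%. The let-7f inhibitor gave none of 47 with edgeR (4 at an unadjusted p under 0.05, 0 with DESeq2, and 6 with the block, 1 up and 5 down, or 12.8% against a background of 11.2%). With the block the counts after the mimics were 21 to 27. They made 47.8%, 48.9% and 43.8% of the list after miR-301b in Y537S, D538G and WT cells, against backgrounds of 38.4%, 33.3% and 28.2%. After miR-331 they made 58.7% and 48.9% in Y537S and WT cells (backgrounds 60.7% and 37%). After miR-181c they made 55.6% and 51.1% in D538G and WT cells (backgrounds 29.3% and 27.9%). The median log2 fold change of the list without the block was 0.075, 0.05 and 0.073 after miR-301b in Y537S, D538G and WT cells, 0.14 and 0.014 after miR-331 in Y537S and WT cells, 0.026 and 0.09 after miR-181c in D538G and WT cells, and -0.035 with the let-7f inhibitor.

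The gene of the list called after miR-301b in all 3 genotypes was ZFYVE9, which encodes SARA, an anchor that presents SMAD2 and SMAD3 to the activated receptor. It was at 26.2 and 25.5 CPM in clone1 and clone2 of Y537S cells against 43.6 and 38.1 CPM, at 31.9 and 25.9 CPM in A5 and C2 of D538G cells against 42.4 and 46.4 CPM, and at 26.7 and 25.5 CPM in D1 and D4 of WT cells against 44.6 and 42.0 CPM. No treated library reached a control, and the log2 fold changes were -0.68 (SE 0.112, adjusted p = 0.0393), -0.62 (SE 0.121, adjusted p = 0.014) and -0.73 (SE 0.0964, adjusted p = 0.00537). Without the block and with the GC trend removed, the call was kept in WT cells (adjusted p = 0.00437) and lost in Y537S (0.104) and D538G cells (0.0645), and under the joint correction all 3 were called (adjusted p = 2.07e-10, 0.000151 and 0.000232).

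The other genes of the list named here are those with the smallest p in each comparison. ID3, a BMP target, rose after miR-301b in D538G (from a mean of 78.9 to 113 CPM, log2 fold change 0.52, adjusted p = 0.0167) and WT cells (0.58, adjusted p = 0.016), as did JUNB in D538G cells (0.46, adjusted p = 0.0195) and SKI, a corepressor of SMADs, in WT cells (0.47, adjusted p = 0.0196). After miR-331, JUNB (1.04 in Y537S and 0.67 in WT cells, adjusted p = 0.00796 and 0.000893) and STUB1, a ubiquitin ligase (1.03 and 0.68, adjusted p = 0.00665 and 0.000578), rose in both genotypes, CDKN1A, the cell cycle inhibitor p21, rose in Y537S (1.2, adjusted p = 0.0094) and SKI in WT cells (0.45, adjusted p = 0.0014). With the GC trend removed and no block, the calls of ID3 (adjusted p = 0.118 and 0.0718), SKI (0.284 and 0.328) and JUNB (0.589 after miR-301b, 0.0598 and 0.23 after miR-331) and that of STUB1 in WT cells (0.0791) were lost. Under the joint correction, ID3 was called (0.37 and 0.45, adjusted p = 0.000237 and 0.000243), as were JUNB after miR-331 (0.65 and 0.2, adjusted p = 4.66e-07 and 0.0117), STUB1 in WT cells (0.26, adjusted p = 0.00582) and SKI after miR-301b (0.21, adjusted p = 0.0363). JUNB after miR-301b (0.12, adjusted p = 0.321) and SKI after miR-331 (0.13, adjusted p = 0.112) were not.

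After miR-181c in D538G cells CDKN1A rose by 0.93 on the log2 scale (adjusted p = 0.00335), JUNB by 0.64 (adjusted p = 0.0069, and with the GC trend removed 0.197 without and 0.00454 with the block) and INHBB, a subunit of activin B, by 0.61 (adjusted p = 0.00345). In WT cells the same mimic raised BMP4, a ligand (0.69, adjusted p = 0.000747), and BAMBI, a decoy receptor without a kinase (0.68, adjusted p = 0.000377), and lowered FKBP1A, which binds type I receptors (-0.57, adjusted p = 0.000899).

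Between genotypes with the mimic negative control, 16 of 46 genes of the list were called in Y537S against WT (5 up and 11 down), 20 of 46 in D538G against WT (6 up and 14 down) and 5 of 46 in Y537S against D538G cells (3 up and 2 down). These shares, 34.8%, 43.5% and 10.9%, stood beside 29%, 38.9% and 6.19% of all tested genes, and the first 2 are near the background. CDKN2B, the cell cycle inhibitor p15 and a classical TGF-beta target, was at 95.2 and 103 CPM in D1 and D4 of WT cells, at 29.9 and 32.6 CPM in clone1 and clone2 of Y537S and at 29.4 and 31.3 CPM in A5 and C2 of D538G cells. It was lower than WT by 1.65 (SE 0.1, adjusted p = 0.000119) and 1.72 (SE 0.087, adjusted p = 4.65e-06) on the log2 scale, and no mutant library came near a WT one. The ligand TGFB3 was at 352 and 385 CPM in WT, 232 and 198 CPM in Y537S and 231 and 213 CPM in D538G cells (-0.76 and -0.75, adjusted p = 0.00159 and 8.57e-05). BAMBI was higher in D538G than in WT cells (0.71, adjusted p = 6.73e-05), and NEDD4L, a ubiquitin ligase for SMADs and receptors, was lower in Y537S than in WT (-0.53, adjusted p = 0.00467) and D538G cells (-0.61, adjusted p = 0.0263). PPM1A, a phosphatase of SMADs (0.46, adjusted p = 0.0282), and STRAP, a receptor-associated protein (0.76, adjusted p = 0.00847), were higher in Y537S than in D538G cells.

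For ACVR1B, the member called in most treatments without the block, the genes whose levels followed it most closely over the 24 libraries, among 14057 genes tested in every comparison, were SNX29 (Pearson r = 0.955), KAZALD1 (0.942) and ZNF467 (0.941), on log2 CPM. The 24 libraries share clones and controls, so these values are a description.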

How the data were processed

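The authors made poly-A RNA-seq libraries, aligned the reads to hg19 with HISAT2, converted them with SAMtools and summarized them per gene with Subread's featureCounts, on the UCSC Known Genes (tools as named in the submitters' processing notes, without versions). The authors deposited these counts without normalization. Strand setting and treatment of reads mapping to several genes are not given in the sources used here, so values of overlapping or antisense genes are uncertain. Genotypes and treatments follow the sample titles, since some labels transpose the digits of Y537S. Column headings name D538G and WT clones by letters that no sample title repeats, so these columns were joined to conditions and not to single samples. The authors' tables of differential expression were not used.

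Levels are CPM normalized with TMM over the 24 libraries, given as mean ± SD or per library. Genes were tested with edgeR 4.0.16 in R 4.3.3 (filterByExpr with a minimum count of 10, TMM, quasi-likelihood test, two-sided, Benjamini-Hochberg over all tested genes, called at an adjusted p under 0.05) using the libraries of each comparison. SE is the absolute log2 fold change over the square root of F. The clones were the replicates. Without the block the p-values measure the spread between the clones of a genotype, and an exact two-sided permutation of 2 against 2 has 0.333 as its smallest p. The block takes differences between clones out and leaves little information on the remaining spread of each gene. The p-values of the blocked fits therefore lean on the variance shared across genes, and very small ones do not stand for many replicates. Treated and control libraries of a clone derive from that one line of cells, which is why the clone served as the pairing. The correlation over genes of the clone difference in treated and control libraries was 0.54 to 0.59 in Y537S, 0.24 and 0.25 in D538G and 0.17 to 0.24 in WT cells. Alternatives were the clone as a block, DESeq2 1.42.0, DESeq2-type size factors, no filter on low counts, removal of the trend of log2 CPM on GC content (lowess, span 0.3), the block and the GC correction together, all 24 libraries in 1 fit, and each library left out in turn. The scripts were checked on simulated counts.

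Genes were matched to GENCODE v44 lifted to GRCh37, 22494 through the current symbol and 1408 through a former one, with 2462 unmatched, for transcript length, GC content (23902 genes) and 3′UTRs of the canonical or longest transcript. This is not the annotation the authors counted on. The members, the pathway list and the markers were chosen with earlier results of these data known. Named were all members, in each comparison up to 3 called genes of the pathway list with the smallest p and a mean of at least 1 CPM, and the 3 genes most correlated with the member called most often.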

Additional observations from a re-analysis of the deposited data

How the results depend on the processing

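Counts of called members depended most on the GC correction, the clone block and single libraries. With the clone as a replicate block the members called rose from 2 to 7 (miR-301b in Y537S), 0 to 3 (let-7f), 2 to 6 (miR-181c in D538G), 4 to 7 (miR-301b in WT) and 0 to 4 (miR-331 response, Y537S against WT), while in the other comparisons the block kept the count within 1.5 times. With the GC correction they fell to 0 for miR-301b in Y537S, 0 for miR-301b in D538G, 0 for miR-181c in D538G and 2 for miR-181c in WT. With the replicate block and the GC correction together they were 6, 8, 2, 4, 3 and 2 for miR-301b in Y537S, miR-331 in Y537S, let-7f, miR-181c in D538G, miR-181c in WT and the miR-331 response. DESeq2 called 4 for miR-301b in Y537S, 1 for let-7f and 1 for the miR-331 response, no filter on low counts 1 for the miR-331 response, and all 24 libraries in 1 fit 6 for miR-301b in Y537S and 1 for Y537S against WT. DESeq2-type size factors kept each count within 1.5 times. The cause was not tested.

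With the GC correction the sign changed in 15 of the 72 treatment tests of members, and with the replicate block and the GC correction in 16. Of these, 2 had been called (with the block), and 13 and 14 had not. The called ones were the same in both: SMAD5 after miR-331 in Y537S went to 0.31 and BMPR2 after miR-181c in D538G to 0.027. Leaving out 1 library at a time, the members called ranged from 0 to 2 (miR-301b in Y537S), 2 to 4 (miR-331 in Y537S), 2 to 5 (miR-301b in D538G), 0 to 3 (miR-181c in D538G), 2 to 5 (miR-301b in WT), 2 to 4 (miR-331 in WT), 1 to 6 (miR-181c in WT), 1 to 2 (Y537S against WT), 1 to 3 (D538G against WT) and 0 to 1 (miR-331 response). With 1 library left in an arm, it is assumed to vary like the others. Over the single genes called with or without the block, 37 of these fits lost a call, 6 gained one and none turned a direction. With an 8-base match in place of 7 bases, the members with a match went from 9 to 1 (miR-301b), 5 to 1 (miR-181c) and 3 to 2 (let-7f) and stayed at 3 for miR-331. Of all genes with a 3′UTR, 2.87% (miR-301b), 6.3% (miR-181c), 3.78% (let-7f) and 4.52% (miR-331) held the 8-base match. TGFBR2 is limited by depth.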
